A study of Mus musculus with 24 samples.

Results

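The genes described here are 10 genes of the inflammatory NF-kB response: the cytokine genes Tnf, Il6 and Il10, the transcription factor subunit genes Nfkb1 and Relb, the inhibitor genes Nfkbia, Nfkbiz, Tnfaip3 and Socs3, and Acod1. They were taken by symbol from the deposited count tables, and all 10 were found among the 49022 genes that both tables share. Bulk sequencing of polyadenylated RNA measured them in 24 libraries of lung macrophages sorted from C57BL/6J mice, wild-type (WT) or carrying an EGFP reporter knocked in at Spp1, the osteopontin gene. Mice had received bleomycin, a cytotoxic antibiotic whose lung injury serves as a model of fibrosis, at 3 µg per g body weight, or PBS, by the intratracheal route. CD11b+ SiglecF- cells are called interstitial macrophages (IMs) and CD11b- SiglecF+ cells alveolar macrophages (AMs). The 8 groups of 3 libraries were EGFP+ IMs of day 14 after bleomycin, EGFP+ and EGFP- IMs of day 7 after bleomycin, WT IMs at day 7 after bleomycin, WT IMs at day 7 after PBS, EGFP+ AMs at day 7 after PBS, and EGFP+ AMs at days 14 and 30 after bleomycin. EGFP is meant to report activity of the Spp1 locus. The WT mice carried no reporter, EGFP- cells were sequenced as IMs of day 7 only, and the ages of the mice are not given in the labels.

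In resting macrophages NF-kB dimers are held in the cytoplasm by inhibitor proteins of the IkB family. Signals from TNF, interleukin-1 and Toll-like receptors lead to breakdown of IkB, and the freed dimers enter the nucleus and switch on cytokine genes together with genes that end the response. Of the genes that end it, Nfkbia encodes IkB alpha, which takes the dimers back out of the nucleus, and Tnfaip3 encodes A20, a ubiquitin-editing enzyme that acts on the receptor complexes. Socs3 is switched on by STAT3 downstream of interleukin-6 and interleukin-10 and limits signalling from the interleukin-6 receptor. Acod1 encodes the mitochondrial enzyme that makes itaconate, a metabolite that inflammatory macrophages and neutrophils release and that restrains inflammation.

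The bases before the transcript start are shown for Tnf and Il6, cytokine genes of unlike pattern, and for Nfkbia, the best-known NF-kB feedback gene. Their NF-kB and TATA letters can so be compared. The windows are RefSeq sequences of 250 bases on GRCm38.p6, written on the strand of the gene and ending at the base before the start: chr17:35202008-35202257 (minus strand) for Tnf, chr5:30012864-30013113 (plus strand) for Il6 and chr12:55492648-55492897 (minus strand) for Nfkbia. Capitals mark matches to the motifs searched.
Tnf: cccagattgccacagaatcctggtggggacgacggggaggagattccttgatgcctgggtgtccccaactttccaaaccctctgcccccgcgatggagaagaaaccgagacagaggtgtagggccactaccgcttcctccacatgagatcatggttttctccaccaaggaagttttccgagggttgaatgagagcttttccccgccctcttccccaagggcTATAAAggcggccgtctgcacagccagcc
Il6: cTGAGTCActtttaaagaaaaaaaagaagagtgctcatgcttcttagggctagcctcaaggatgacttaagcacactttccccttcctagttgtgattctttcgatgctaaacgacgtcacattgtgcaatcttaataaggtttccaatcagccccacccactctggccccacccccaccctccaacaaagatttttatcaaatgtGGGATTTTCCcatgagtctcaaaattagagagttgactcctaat
Nfkbia: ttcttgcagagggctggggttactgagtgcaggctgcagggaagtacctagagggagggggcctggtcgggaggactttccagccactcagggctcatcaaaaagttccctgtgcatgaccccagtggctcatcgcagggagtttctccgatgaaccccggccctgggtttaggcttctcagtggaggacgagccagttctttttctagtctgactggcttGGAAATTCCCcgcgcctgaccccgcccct

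The motifs were the kappaB consensus, the STAT-type palindrome TTCNNNGAA, the TATA-box letters TATAAA and the AP-1-type site TGACTCA, each searched on both strands. Positions are counted backwards from the RefSeq transcript start, and no match of one motif overlapped one of another. The Il6 window held GGGATTTTCC at -44 to -35 and, on the minus strand, TGACTCA at -249 to -243, which reads TGAGTCA in the window as printed. The Nfkbia window held GGGAATTTCC on the minus strand at -29 to -20, and the Tnf window held TATAAA at -29 to -24. A RefSeq window was at hand for 6 of the 10 genes, the others being Tnfaip3, Socs3 and Acod1; Il10, Nfkb1, Relb and Nfkbiz had none. Of the 6, 3 held the kappaB consensus (Il6, Nfkbia, Tnfaip3), 1 held TTCNNNGAA (Socs3), 3 held TATAAA (Tnf, Tnfaip3, Acod1) and 2 held TGACTCA (Il6, Tnfaip3). A gene was counted where any of its windows held the motif, and of all 27025 genes with a RefSeq window 4.46% did so for the kappaB consensus, 8.13% for TTCNNNGAA, 14.3% for TATAAA and 5.16% for TGACTCA. A match is a match of letters and does not show binding. Bases outside the windows were not searched, so a window without a motif does not show that the gene lacks it.

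Each library held between 13450053 and 24580620 counts in all. Levels are in CPM, a count scaled by the total count of its library, given for replicates 1, 2 and 3 in that order, and n is 3 libraries per group throughout. The genes of the sorted surface proteins followed the gates: group means of Itgam, which encodes CD11b, were 218 to 379 CPM over the IM groups and 7.32 to 26.1 CPM over the AM groups, and those of Siglecf were 7.42 to 25.1 CPM over the IM groups and 122 to 415 CPM over the AM groups. Of the other macrophage genes, Marco had group means of 2.43 to 37.5 CPM over the IM groups and 148 to 346 CPM over the AM groups. The highest of these, 346 ± 309 CPM in day 14 AMs, came from libraries that ran from 107 to 695 CPM. Adgre1, which encodes F4/80, had 178 to 640.4 CPM over the IM groups and 366 to 423 CPM over the AM groups, and Cd68 290.3 to 914 CPM over the IM groups and 657 to 1014 CPM over the AM groups. Mertk, which encodes a receptor for dying cells that marks lung macrophages, varied over the IM gate: it had group means of 85.3 to 207 CPM in the 4 bleomycin groups of IMs, 17.5 ± 5.37 CPM in PBS WT IMs and 282 to 476 CPM in AMs. Spp1 did not follow the EGFP sort in every group. It averaged 202 ± 9.47 CPM in EGFP+ AMs after PBS, below the 518 ± 59.5 CPM of EGFP- IMs. The other EGFP+ groups averaged 4103 CPM (day 7 IMs), 5898 CPM (day 14 IMs), 4808 CPM (day 14 AMs) and 6822 CPM (day 30 AMs). Bleomycin WT IMs averaged 3437 CPM and PBS WT IMs 91.3 CPM. In the PBS WT IMs the neutrophil gene S100a9 averaged 2969 ± 421 CPM. The IM gate also held transcripts of 10 neutrophil markers, among them S100a8, S100a9, Retnlg and Cxcr2. Their summed level had group medians of 143 CPM in day 14 EGFP+ IMs, 2409 CPM in day 7 EGFP+ IMs, 6227 CPM in EGFP- IMs, 1812 CPM in bleomycin WT IMs and 7713 CPM in PBS WT IMs. In AMs the medians were 188 CPM after PBS, 98.4 CPM on day 14, where the neutrophil gene Ly6g was at 0, and 618 CPM at day 30. Replicate 1 of the day 14 EGFP+ IMs stood apart from its group: the counts of 2 replicates differed by a chi-square per degree of freedom of 60.7 and 117 in its pairs, against 24.1 for the other pair of that group and 2.97 to 23.7 in the other groups. In day 14 AMs the pairs with replicate 1 gave 23.5 and 23.7, and the other pair gave 12.45. For comparisons of the day 14 EGFP+ IMs, calls that changed without their replicate 1 are given both ways. EGFP+ and EGFP- IMs of day 7 were tested in a fit that also held this group, and that fit was not repeated without replicate 1.

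Tnf encodes the cytokine TNF, which starts the NF-kB response in neighbouring cells. Its group means were 76.02 ± 16.3 CPM in day 14 EGFP+ IMs, 312 ± 36.96 CPM in day 7 EGFP+ IMs, 525 ± 44.6 CPM in EGFP- IMs, 138 ± 4.16 CPM in bleomycin WT IMs and 194 ± 23.6 CPM in PBS WT IMs (mean ± SD). In AMs they were 158 ± 4.24 CPM after PBS, 68.9 ± 4.06 CPM on day 14 and 91.5 ± 9.51 CPM on day 30. EGFP- IMs stood highest and day 14 AMs lowest, a 7.63-fold span of means, and the libraries of the 3 lowest groups, day 30 AMs, day 14 EGFP+ IMs and day 14 AMs, overlapped from one neighbour to the next. Il6 encodes interleukin-6, which signals through STAT3. It had another order: day 14 AMs led with 82.7 ± 5.65 CPM, day 30 AMs were lowest with 16.4 ± 1.101 CPM, and the means of the other 6 groups lay between 34.8 and 41.2 CPM, each neighbour overlapping the next. Il10 encodes interleukin-10, which damps macrophage cytokine output. It was highest in PBS WT IMs (35.4 ± 7.53 CPM) and ran from 15.4 to 25.6 CPM in the other IM groups, against 2.24 to 5.97 CPM in the AM groups, the lowest of them after PBS.

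Nfkb1 encodes the precursor of the NF-kB subunit p50, and Relb a subunit of the alternative pathway. Both were highest in EGFP- IMs, at 600.4 ± 12.2 CPM for Nfkb1 and 192 ± 14.99 CPM for Relb. PBS WT IMs came next for both, followed by day 7 EGFP+ IMs and bleomycin WT IMs. From there down, to means of 158 CPM for Nfkb1 and 34.3 CPM for Relb, 3 of the 4 further steps between neighbouring groups had overlapping libraries for each gene. The inhibitor genes Nfkbia, Nfkbiz and Tnfaip3 were also highest in EGFP- IMs, with 1594 ± 149, 1313 ± 10.37 and 2033 ± 27.7 CPM. Nfkbiz encodes IkB zeta, a nuclear IkB protein that is needed for part of the secondary response, including Il6. It is listed with the inhibitor genes here as an IkB protein, as are the nuclear IkB genes Bcl3 and Nfkbid below. The word inhibitor does not describe their effect on each target gene. The AM means of Nfkbiz, 155 to 206 CPM, were below every IM mean. Socs3 was highest in EGFP- IMs with 734 ± 12.7 CPM and lowest in PBS AMs with 40.4 ± 6.18 CPM.

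Acod1 had the widest span, 529-fold between group means. EGFP- IMs held 1535, 1662 and 1728 CPM and PBS WT IMs 1102, 1214 and 1179.5 CPM. Day 14 AMs held 3.1, 3.42 and 2.78 CPM, which rests on 43 to 46 counts per library. Of the 7 steps between neighbouring groups in the order of Acod1 levels, 1 had overlapping libraries, that between PBS AMs and day 14 EGFP+ IMs. Over all 10 genes, 8 were highest in EGFP- IMs, the exceptions being Il6 and Il10, and 27 of 70 neighbouring pairs of groups overlapped. For 8 genes, all but Tnf and Il6, the mean of every day 7 IM group was above that of every AM group. How many of all genes were ordered in these ways was not counted. These counts therefore describe the 10 genes and do not set them apart from other genes.

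**Figure D1:**
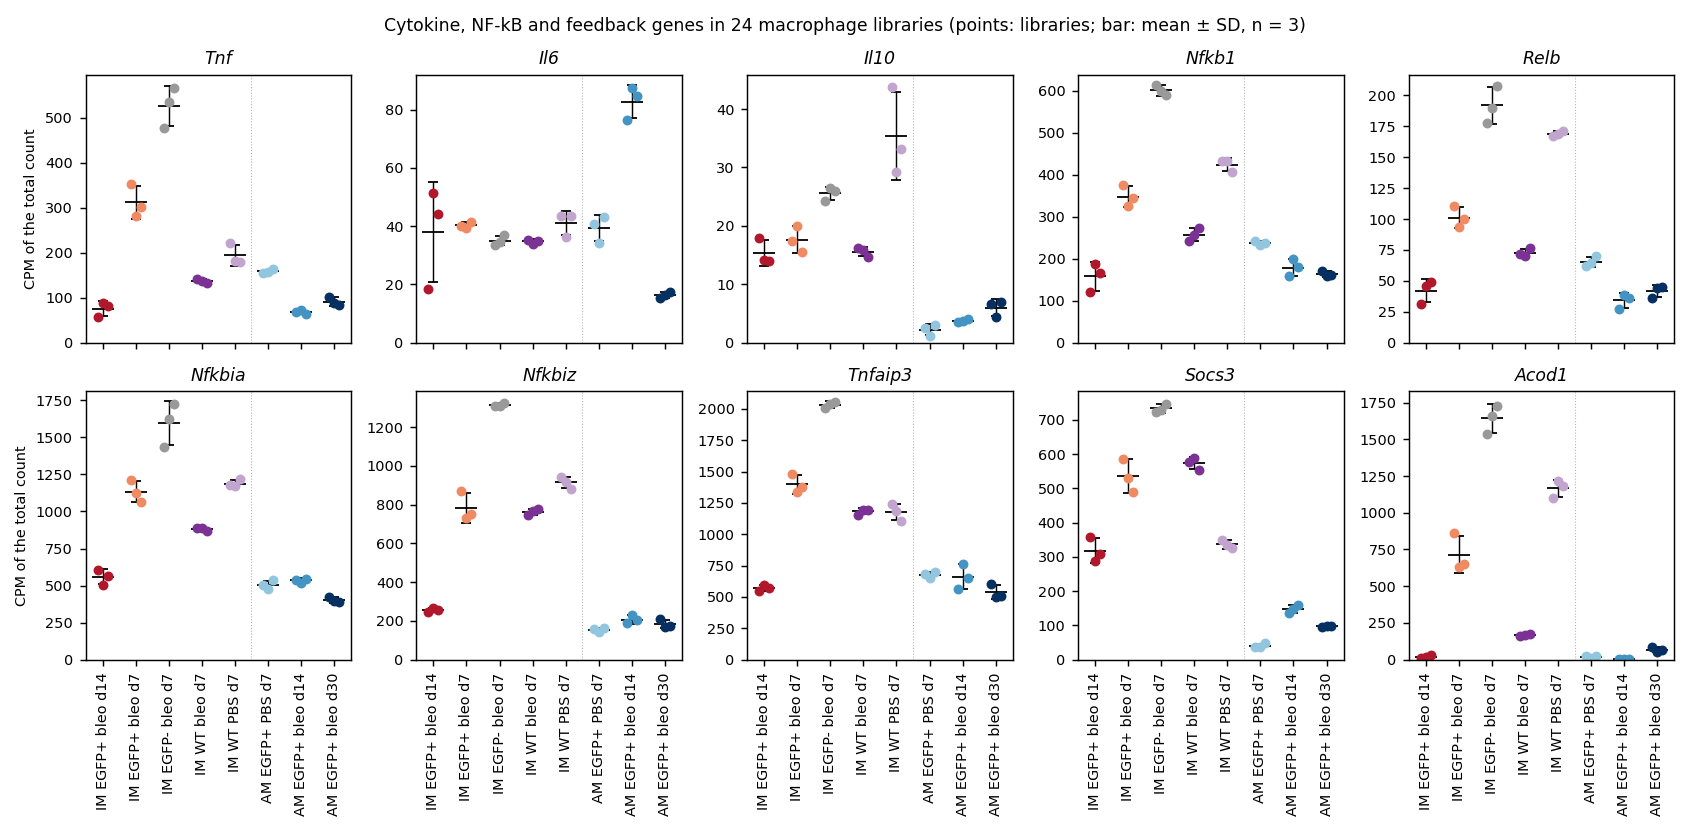
Level of each of the 10 genes in every library, in CPM of the total count, by group; points are libraries and the bar with whiskers is the mean ± SD (n = 3), with IM groups left of the dotted line and AM groups right of it. EGFP- IMs (grey) stand highest for 8 genes, while Il6 peaks in AMs at day 14.

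Per kilobase of exon, Nfkbia was the most abundant of the 10 transcripts in all 8 groups, from 250.1 CPM per kb in day 30 AMs to 990.3 CPM per kb in EGFP- IMs. On that scale Acod1 was the second in EGFP- IMs, with 626, and the last in day 14 AMs, with 1.18. Il10 or Il6 was the last in the day 7 IM groups. Within a library, the count ratio of Il6 to Tnf was 0.248 ± 0.0272 in PBS AMs, 1.203 ± 0.0994 in day 14 AMs and 0.181 ± 0.0296 in day 30 AMs. The day 14 libraries stood above all others in this ratio. In IMs the same ratio was 0.13 ± 0.0146 in the day 7 EGFP+ group and 0.0669 ± 0.00324 in the EGFP- group.

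Changes between groups were tested with edgeR's quasi-likelihood test over all genes, and "called" means an adjusted p under 0.05. Fold changes are on the scale of that fit. In this bulk material a lower level from fewer cells of a type and one from less RNA per cell cannot be told apart.

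**Figure D2:**
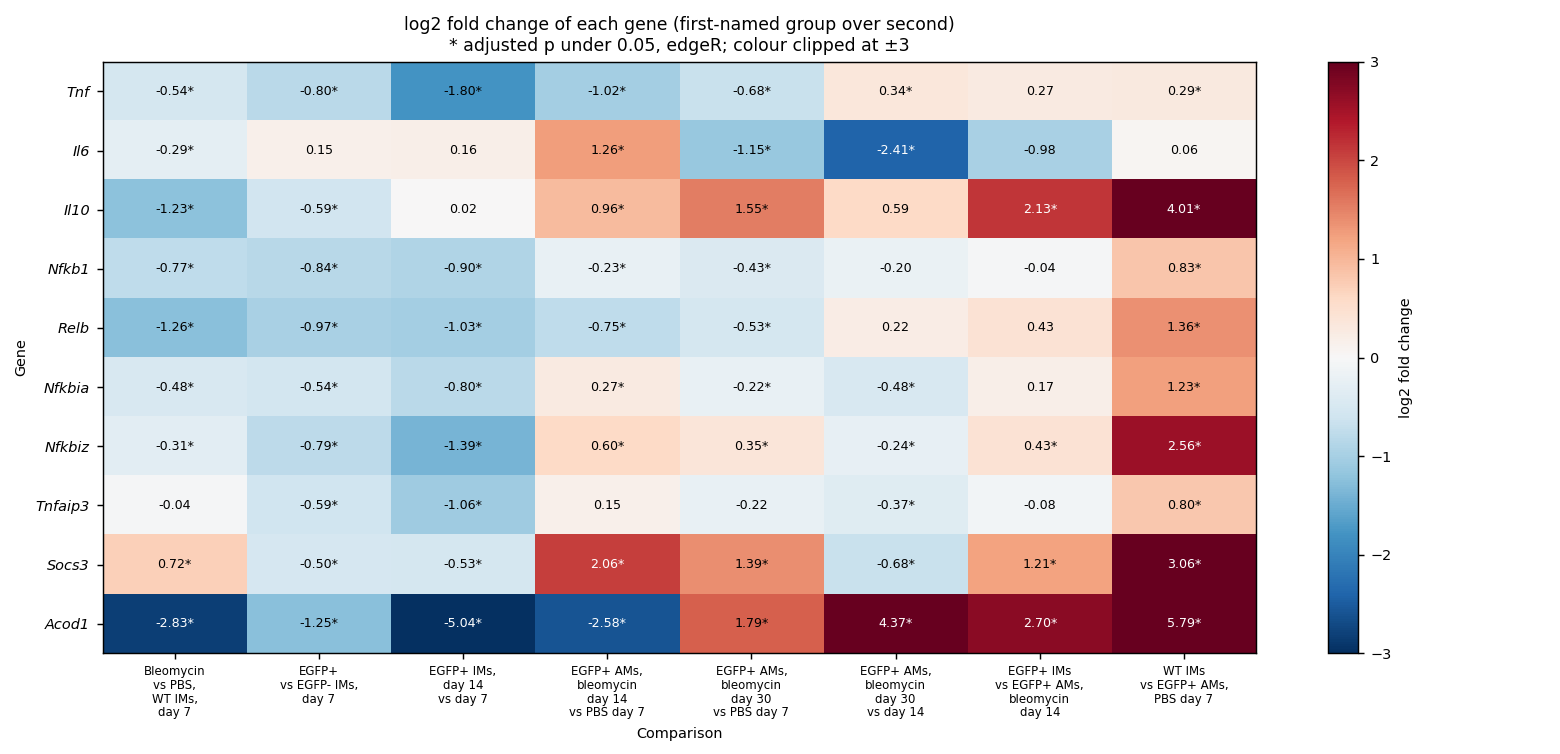
Log2 fold change of each gene (rows) in 8 comparisons (columns), first-named group over second, with asterisks for an adjusted p under 0.05 in edgeR. The 3 IM comparisons on the left are mostly negative, the AM columns are mixed, and Acod1 ranges from -5.04 to 5.79.

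WT IMs of day 7 were compared after bleomycin and after PBS to show the response of this gate to injury. Of the 10 genes, 8 were lower after bleomycin, where 34.5% of all 15496 genes tested were called lower, and 1 was higher, where 35.6% were. The lower genes were all 3 cytokine genes, both subunit genes, Nfkbia, Nfkbiz and Acod1, and the higher one was Socs3. The shares of all genes called were large, and the 10 genes had a median log2 change of -0.51.

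Acod1 changed most. Its level was 161, 169.7 and 177 CPM after bleomycin and 1102, 1214 and 1179.5 CPM after PBS, with no overlap, and it was 7.11-fold lower (log2 fold change -2.83 ± 0.05 SE, edgeR adjusted p = 2.21e-21). Among the cytokine genes, Il10 held 16.2, 15.8 and 14.7 CPM after bleomycin and 43.8, 29.2 and 33.1 CPM after PBS (log2 fold change -1.23 ± 0.13 SE, edgeR adjusted p = 2.20e-07). Tnf held 142, 138 and 134 CPM after bleomycin and 221, 182 and 179 CPM after PBS (log2 fold change -0.54 ± 0.07 SE, edgeR adjusted p = 1.58e-06). All 3 bleomycin libraries were below all 3 PBS libraries for both genes. Il6 was lower by less, at 35.4, 34.01 and 34.9 CPM after bleomycin and 43.5, 36.4 and 43.6 CPM after PBS (log2 fold change -0.29 ± 0.08 SE, edgeR adjusted p = 0.00263). That call was lost when all libraries entered one fit (log2 fold change -0.32, edgeR adjusted p = 0.256). Relb, at 71.7, 70.1 and 76.5 CPM after bleomycin and 167, 169 and 171 CPM after PBS, fell 2.4-fold (log2 fold change -1.26 ± 0.05 SE, edgeR adjusted p = 2.10e-15), and Nfkb1 fell 1.701-fold.

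The inhibitor genes did not move as one. Socs3 rose to 577, 589 and 555 CPM after bleomycin, against 351, 334 and 326 CPM after PBS (log2 fold change 0.72 ± 0.05 SE, edgeR adjusted p = 9.93e-12). Nfkbia and Nfkbiz fell 1.39-fold and 1.24-fold, with libraries that did not overlap. Tnfaip3 did not pass the test: it held 1156, 1196 and 1197 CPM after bleomycin and 1239, 1189 and 1109 CPM after PBS, ranges that overlap (log2 fold change -0.04 ± 0.05 SE, edgeR adjusted p = 0.459).

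Of 42 other genes of the pathway, taken as a list of receptors, adaptors and kinases, subunits, inhibitors and the STAT arm, 28 were lower and 9 higher after bleomycin, with a median log2 change of -0.42 against 0.00 over all genes. By role, 5 of 6 receptors, 9 of 16 adaptors and kinases, 3 of 3 subunits, 7 of 11 inhibitors and 4 of 6 STAT-arm genes were lower. Map3k14, the NF-kB-inducing kinase of the alternative pathway, averaged 101 ± 9.63 CPM after bleomycin against 308 ± 13.2 CPM after PBS and fell 3.14-fold (edgeR adjusted p = 1.34e-16). Rel, which encodes the subunit c-Rel, averaged 502 ± 32.3 CPM after bleomycin against 1119.7 ± 45.3 CPM after PBS, and Birc3, a ubiquitin ligase of TNF receptor complexes, 214 ± 5.65 CPM after bleomycin against 448 ± 12.05 CPM after PBS, both lower. Cish, a STAT-induced inhibitor related to Socs3, averaged 83.9 ± 3.01 CPM after bleomycin against 26.4 ± 1.56 CPM after PBS and rose 3.08-fold (edgeR adjusted p = 1.51e-15). The macrophage genes Mertk and Cd68 were higher, with 150.4 ± 3.001 CPM after bleomycin against 17.5 ± 5.37 CPM after PBS and 651 ± 29.1 CPM after bleomycin against 290.3 ± 16.2 CPM after PBS. All 10 neutrophil markers were lower, with a summed level of 1775 to 1874 CPM after bleomycin and 7360.0 to 8734 CPM after PBS. The sum of 6 epithelial markers was 132 to 172 CPM after bleomycin and 4308 to 6396 CPM after PBS; 4 of them, genes of surfactant and club cell secretion, were lower, while Epcam, with 11.2 ± 2.06 CPM after bleomycin against 6.82 ± 1.81 CPM after PBS, and Cdh1, with 81.7 ± 7.31 CPM after bleomycin against 29.9 ± 5.88 CPM after PBS, were higher. All 6 B cell markers were lower, with a sum of 151 to 190.1 CPM after bleomycin and 679 to 788 CPM after PBS, and so were 6 of 6 fibroblast and endothelial markers. Of 6 dendritic cell markers 2 were lower and 1 higher, and of 6 T and NK cell markers 3 were higher. The sum of 13 stress and immediate early genes was 10979 to 11240.4 CPM after bleomycin and 8617 to 9059 CPM after PBS. Of these 13, 8 were higher and 5 lower. The part of all these transcripts in the fall of the 8 genes was not tested.

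Among reporter mice at day 7 after bleomycin, EGFP+ and EGFP- IMs were compared to ask how cells that express the Spp1 reporter differ from those that do not. The fit also held the day 14 EGFP+ IMs, replicate 1 included, which share its estimate of spread. A fit of the 2 groups alone called 4064 of 14593 genes higher, where the fit used called 2571 of 14967. All of the 10 genes but Il6 were lower in EGFP+ IMs (9 of 10, where 17.6% of 14967 genes were called lower), and 0 were higher by edgeR (17.2% of genes), by DESeq2 or at an unadjusted p under 0.05. Acod1 was 2.37-fold lower, with 862, 631 and 652 CPM in EGFP+ and 1535, 1662 and 1728 CPM in EGFP- IMs (log2 fold change -1.25 ± 0.32 SE, edgeR adjusted p = 0.0156). The libraries did not overlap, but the call was lost without EGFP+ replicate 2 (log2 fold change -1.16, edgeR adjusted p = 0.0661), without EGFP+ replicate 3 (-1.17, edgeR adjusted p = 0.0594) and without EGFP- replicate 3 (-1.19, edgeR adjusted p = 0.0524), and also with no filter on low counts (-1.19, edgeR adjusted p = 0.0828).

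Tnf held 353, 282 and 301 CPM in EGFP+ and 477, 534 and 565 CPM in EGFP- IMs (log2 fold change -0.80 ± 0.18 SE, edgeR adjusted p = 0.00549). Il10 was 1.5-fold lower, at 17.4, 20.1 and 15.5 CPM in EGFP+ and 24.3, 26.5 and 25.9 CPM in EGFP- IMs. In both cases each EGFP+ library was below each EGFP- library. Il6 was not called, with 40.1, 39.3 and 41.6 CPM in EGFP+ and 33.7, 34.6 and 36.9 CPM in EGFP- IMs (log2 fold change 0.15 ± 0.33 SE, edgeR adjusted p = 0.758). Its libraries did not overlap, and in a fit of these 2 groups alone Il6 was called higher (log2 fold change 0.20, edgeR adjusted p = 0.0381).

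Of the subunit genes, Relb fell 1.96-fold, with 110.4, 93.3 and 99.9 CPM in EGFP+ and 178, 190.0 and 208 CPM in EGFP- IMs (log2 fold change -0.97 ± 0.17 SE, edgeR adjusted p = 0.00183), and Nfkb1 1.79-fold. The 4 inhibitor genes fell between 1.42-fold (Socs3) and 1.73-fold (Nfkbiz). Nfkbiz held 872, 729 and 752 CPM in EGFP+ and 1307, 1308 and 1325 CPM in EGFP- IMs (log2 fold change -0.79 ± 0.11 SE, edgeR adjusted p = 0.000354). Tnfaip3 held 1485, 1339.9 and 1375 CPM in EGFP+ and 2004, 2038 and 2059 CPM in EGFP- IMs, with every EGFP+ library below every EGFP- library.

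Of the 42 other pathway genes 30 were lower in EGFP+ IMs and 0 higher by edgeR, by DESeq2 or at an unadjusted p under 0.05, with a median log2 change of -0.55; among the 30 were 5 of 6 receptors, 10 of 16 adaptors and kinases, all 3 subunits, 8 of 11 inhibitors and 4 of 6 STAT-arm genes. A fit of the 2 groups alone called 2 pathway genes higher. Map3k14 averaged 71.2 ± 3.74 CPM in EGFP+ IMs against 140.3 ± 3.95 CPM in EGFP- IMs (edgeR adjusted p = 4.21e-05), and Jak2, a kinase of cytokine receptors, 262 ± 23.6 CPM in EGFP+ IMs against 528 ± 1.09 CPM in EGFP- IMs. Traf1, an adaptor of TNF receptors that NF-kB itself induces, averaged 157 ± 18.7 CPM in EGFP+ IMs against 318 ± 9.55 CPM in EGFP- IMs and Birc3 222 ± 21.7 CPM in EGFP+ IMs against 400.4 ± 10.97 CPM in EGFP- IMs. All 10 neutrophil markers were also lower, and their sum was 2236 to 3072 CPM in EGFP+ and 5196 to 6761 CPM in EGFP- IMs. The quotient of Acod1 over that sum ran from 0.271 to 0.282 in the EGFP+ libraries and from 0.256 to 0.295 in the EGFP- libraries, ranges that overlap. Of 6 dendritic cell markers 4 were lower, of 6 epithelial markers 2 and of 6 fibroblast and endothelial markers 1, and the B cell and the T and NK cell markers were not called. Stress genes summed to 7552 to 8057 CPM in EGFP+ and 9180.5 to 9436 CPM in EGFP- IMs. The part of any of these transcripts in the changes of the 10 genes, Acod1 included, was not tested.

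The WT IMs of day 7 after bleomycin, which were not divided by a reporter, did not lie between the EGFP+ and EGFP- IMs of that day for most of the 10 genes. In CPM of the total count, all 3 WT libraries were below all 6 reporter libraries for Tnf, Nfkb1, Relb, Nfkbia, Tnfaip3 and Acod1, that is 6 of 10 genes, where 9.64% of 15204 genes lay so. With TMM scaling, chosen as an alternative after seeing the data, Il10 and Nfkbiz joined them, giving 8 of 10 against 13.8% of genes. For 0 of the 10 genes were all WT libraries above all reporter libraries, against 23.7% of genes on total counts and 14.5% with TMM scaling. Acod1, for example, held 161, 169.7 and 177 CPM in WT IMs, against 631 to 862 CPM in EGFP+ and 1535 to 1728 CPM in EGFP- IMs. The comparison was chosen after the values were seen and carries no test, and genotype cannot be told apart from the sort.

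EGFP+ IMs of day 14 and day 7 after bleomycin were set against each other to follow the gate over time. Of the 10 genes, 8 were lower at day 14 (26.9% of 14967 genes were called lower) and 0 were higher by edgeR (25.3% of genes), by DESeq2 or at an unadjusted p under 0.05. The 2 genes not called were Il6 and Il10. The libraries of the 2 days are in different count tables, so table and day cannot be told apart. On total counts without further scaling the median of all genes stood at -0.225 on the log2 scale, against -0.005 with the scaling used, and the changes of the 10 genes are relative to the second. On total counts 2063 genes were higher and 5367 lower at day 14, where the scaling used gave 3781 and 4025.

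Acod1 fell 33.0-fold, to 11.01, 14.9 and 28.8 CPM at day 14, against 862, 631 and 652 CPM at day 7 (log2 fold change -5.04 ± 0.38 SE, edgeR adjusted p = 1.12e-05). Tnf fell 3.48-fold, to 57.9, 89.4 and 80.7 CPM at day 14, against 353, 282 and 301 CPM at day 7 (log2 fold change -1.80 ± 0.18 SE, edgeR adjusted p = 1.85e-05). All day 14 libraries were below all day 7 libraries for both genes. Il10 held 17.9, 14.2 and 14.1 CPM at day 14 and 17.4, 20.1 and 15.5 CPM at day 7, which overlap (log2 fold change 0.02 ± 0.12 SE, edgeR adjusted p = 0.919). Il6 held 18.5, 51.3 and 44.2 CPM at day 14 and 40.1, 39.3 and 41.6 CPM at day 7 (log2 fold change 0.16 ± 0.33 SE, edgeR adjusted p = 0.702). The day 14 value turns on replicate 1, which was below every day 7 library while replicates 2 and 3 were above them; without it Il6 was called higher at day 14 (log2 fold change 0.50, edgeR adjusted p = 0.000241).

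Among the inhibitor genes, Nfkbiz fell most, to 248, 266 and 254 CPM at day 14, against 872, 729 and 752 CPM at day 7 (log2 fold change -1.39 ± 0.11 SE, edgeR adjusted p = 2.23e-06). Tnfaip3 fell 2.09-fold, to 551, 596 and 574 CPM at day 14, against 1485, 1339.9 and 1375 CPM at day 7. Nfkbia fell 1.74-fold and Socs3 1.448-fold, the smallest step of the 8. Relb and Nfkb1 fell 2.04-fold and 1.86-fold. The 3 libraries of day 14 lay below those of day 7 for each of the 8 genes. How many of all genes were separated in this way was not counted.

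Of the 42 other pathway genes, 22 were lower and 3 higher at day 14. All 3 subunits and 8 of 16 adaptors and kinases were among the lower ones. Jak2 averaged 60.5 ± 3.02 CPM at day 14 against 262 ± 23.6 CPM at day 7, Traf1 35.3 ± 4.07 CPM at day 14 against 157 ± 18.7 CPM at day 7 and Bcl3, a nuclear IkB protein, 43.9 ± 6.94 CPM at day 14 against 131 ± 16.5 CPM at day 7, all lower. Traf6, which carries Toll-like and interleukin-1 receptor signals, averaged 34.99 ± 3.28 CPM at day 14 against 74.6 ± 3.19 CPM at day 7 (edgeR adjusted p = 6.36e-06). All 10 neutrophil markers were lower and summed to 141 to 211 CPM at day 14 and 2236 to 3072 CPM at day 7, and 6 of 6 dendritic cell markers were lower as well. So were 5 of 6 epithelial, 4 of 6 B cell, 4 of 6 fibroblast and endothelial and 2 of 6 T and NK cell markers. The stress genes summed to 5470.5 to 6899 CPM at day 14 and 7552 to 8057 CPM at day 7. Of these 13, 6 were lower and 1 higher. Whether these transcripts had a part in the fall of Acod1 and the other genes was not tested.

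In AMs of reporter mice the 10 genes were divided in direction. At day 14 after bleomycin, against PBS at day 7, 5 of the 10 genes were higher (27.3% of 14706 genes were) and 4 lower (27.6% of genes). Il6, Il10, Nfkbia, Nfkbiz and Socs3 were higher, and Tnf, Nfkb1, Relb and Acod1 lower. At day 30, against the same PBS libraries, 4 were higher (24.8% of genes) and 5 lower (23.1% of genes): Il10, Nfkbiz, Socs3 and Acod1 were higher, and Tnf, Il6, Nfkb1, Relb and Nfkbia lower. Both comparisons share the PBS libraries, which are all of day 7, and both cross the 2 count tables. Treatment therefore cannot be told apart from table or from day. On total counts 2641 of all genes were higher and 5570 lower at day 14, against 4008 and 4060 with the scaling used, and at day 30 2800 were higher and 4365 lower, against 3649 and 3401.

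Il6 and Acod1 moved in opposite directions at the 2 days. Il6 held 40.7, 34.2 and 43.1 CPM after PBS, 76.4, 87.2 and 84.5 CPM on day 14 and 15.2, 16.5 and 17.4 CPM on day 30. The 3 groups did not overlap, and Il6 was higher at day 14 (log2 fold change 1.26 ± 0.10 SE, edgeR adjusted p = 1.15e-08) and lower at day 30 (log2 fold change -1.15 ± 0.10 SE, edgeR adjusted p = 1.05e-07). Acod1 held 25.4, 13.5 and 24.6 CPM after PBS, 3.1, 3.42 and 2.78 CPM on day 14 and 84.01, 52.3 and 65.6 CPM on day 30. It was 5.99-fold lower at day 14 (log2 fold change -2.58 ± 0.31 SE, edgeR adjusted p = 5.99e-05) and, at day 30, 3.45-fold higher (log2 fold change 1.79 ± 0.23 SE, edgeR adjusted p = 0.000135), again with no overlap.

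Tnf was lower at both days. Its level was 154, 158 and 163 CPM after PBS, 69.01, 72.9 and 64.7 CPM on day 14 (log2 fold change -1.02 ± 0.08 SE, edgeR adjusted p = 2.07e-08) and 102, 88.4 and 83.99 CPM on day 30 (log2 fold change -0.68 ± 0.08 SE, edgeR adjusted p = 2.78e-06). Il10 was low throughout, with 28 to 61 counts per PBS library: it held 2.56, 1.14 and 3.02 CPM after PBS, 3.57, 3.72 and 4.01 CPM on day 14 and 6.56, 4.33 and 7.04 CPM on day 30. The day 14 call of Il10 was lost without PBS replicate 2 (log2 fold change 0.63, edgeR adjusted p = 0.0686), whereas at day 30 it held without each library in turn (log2 fold change 1.55 ± 0.29 SE, edgeR adjusted p = 0.000349). The count ratio of Tnf to Il10 was 84.3 ± 47.1 after PBS, 18.3 ± 1.93 at day 14 and 15.98 ± 4.25 at day 30.

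**Figure D3:**
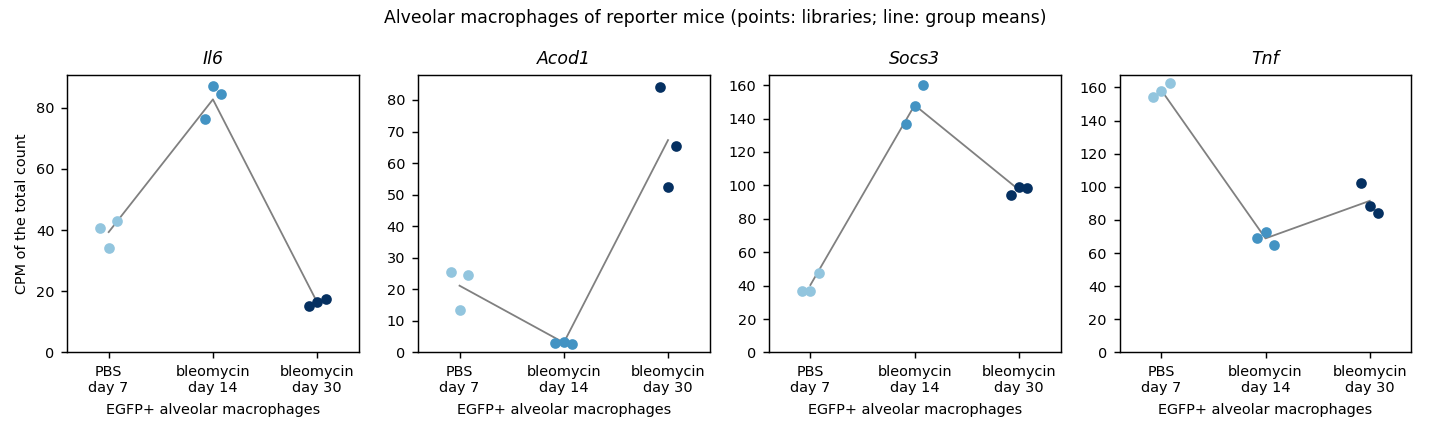
Il6, Acod1, Socs3 and Tnf in EGFP+ AMs after PBS (day 7) and at days 14 and 30 after bleomycin, in CPM of the total count; points are libraries and the line joins group means. Il6 is highest at day 14 (76.4 to 87.2 CPM), where Acod1 is lowest (2.78 to 3.42 CPM).

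Socs3 was the inhibitor gene that changed most in AMs. It held 36.9, 36.8 and 47.5 CPM after PBS, 136, 148 and 160.2 CPM on day 14 (log2 fold change 2.06 ± 0.10 SE, edgeR adjusted p = 4.20e-11) and 94.5, 99.2 and 98.3 CPM on day 30 (log2 fold change 1.39 ± 0.10 SE, edgeR adjusted p = 6.85e-09). Nfkbiz was higher at both days, with 156, 145 and 164 CPM after PBS, 188, 229.5 and 202 CPM on day 14 (log2 fold change 0.60 ± 0.09 SE, edgeR adjusted p = 3.91e-05) and 208, 168 and 173 CPM on day 30 (log2 fold change 0.35 ± 0.09 SE, edgeR adjusted p = 0.00439). Nfkbia moved little: it was 1.203-fold higher at day 14 (edgeR adjusted p = 0.00548), a call lost on total counts (log2 fold change 0.08, edgeR adjusted p = 0.338), where the median of all genes was -0.196. At day 30 Nfkbia was 1.16-fold lower (edgeR adjusted p = 0.0232), and leaving out day 30 replicate 2 or 3, or PBS replicate 1 or 3, raised the adjusted p to 0.0762, 0.109, 0.0745 and 0.109. Tnfaip3 was not called at either day with the settings used (log2 fold change 0.15 ± 0.10 SE, edgeR adjusted p = 0.188 at day 14; log2 fold change -0.22 ± 0.10 SE, edgeR adjusted p = 0.0719 at day 30). Without day 14 replicate 1 it was called higher at day 14 (log2 fold change 0.26, edgeR adjusted p = 0.0114), and without day 30 replicate 1 lower at day 30 (log2 fold change -0.30, edgeR adjusted p = 0.0282). It was also called lower at day 30 on total counts (-0.33, edgeR adjusted p = 0.011), with no filter on low counts (-0.26, edgeR adjusted p = 0.00576) and in a fit of the 2 groups alone (-0.23, edgeR adjusted p = 0.00384).

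The subunit genes were lower at both days. Relb held 62.4, 64.4 and 70.2 CPM after PBS, 27.6, 38.7 and 36.5 CPM on day 14 (log2 fold change -0.75 ± 0.12 SE, edgeR adjusted p = 3.66e-05) and 36.5, 44.1 and 45.3 CPM on day 30 (log2 fold change -0.53 ± 0.11 SE, edgeR adjusted p = 0.000991). Nfkb1 was 1.17-fold lower at day 14 and 1.34-fold lower at day 30. Its day 14 call was lost without day 14 replicate 1 (log2 fold change -0.14, edgeR adjusted p = 0.0868), PBS replicate 1 (-0.21, edgeR adjusted p = 0.0942) or PBS replicate 3 (-0.23, edgeR adjusted p = 0.0556), and with all libraries in one fit (-0.22, edgeR adjusted p = 0.117).

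Among the 42 other pathway genes, 14 were higher and 11 lower at day 14, and 6 were higher and 14 lower at day 30. On total counts the day 14 split was 7 higher and 20 lower. Inhibitors made up 6 of the 14 higher at day 14, while no subunit was higher at either day. Tnfrsf1b, a TNF receptor, averaged 579 ± 62.2 CPM at day 14 against 362 ± 14.4 CPM after PBS, and 683 ± 15.3 CPM at day 30, higher at both. Nfkbid, a nuclear IkB protein, was 1.59-fold higher at day 14 and 1.47-fold higher at day 30. Tnip3, which encodes a partner of A20, averaged 21.1 ± 4.73 CPM at day 14 against 6.04 ± 1.74 CPM after PBS (edgeR adjusted p = 3.61e-06), and Rela, the main transactivating subunit, 69.6 ± 5.21 CPM at day 14 against 126 ± 4.56 CPM after PBS. Il6ra, the interleukin-6 receptor gene, averaged 80.6 ± 4.89 CPM at day 30 against 161 ± 1.82 CPM after PBS, and Nfkb2, the precursor subunit that pairs with RelB, 86.2 ± 5.75 CPM at day 30 against 165 ± 1.11 CPM after PBS, both lower.

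The direct comparison of AMs at day 30 and day 14 after bleomycin lies within one table. Of the 10 genes, 2 were higher at day 30 (19.6% of 14706 genes) and 5 lower (18.7% of genes). Acod1 was 20.7-fold higher (log2 fold change 4.37 ± 0.30 SE, edgeR adjusted p = 2.59e-06) and Tnf 1.27-fold higher (log2 fold change 0.34 ± 0.08 SE, edgeR adjusted p = 0.00366), though the call of Tnf was lost with all libraries in one fit (0.33, edgeR adjusted p = 0.0589). Il6 was 5.301-fold lower (log2 fold change -2.41 ± 0.10 SE, edgeR adjusted p = 4.65e-11), and Socs3 1.599-fold lower (log2 fold change -0.68 ± 0.10 SE, edgeR adjusted p = 4.87e-05). Nfkbia was 1.397-fold lower, with libraries that did not overlap. Tnfaip3 was 1.29-fold lower, with libraries that overlapped (503 to 601 CPM at day 30 and 565 to 764 CPM at day 14). Nfkbiz was 1.19-fold lower by a call near its threshold (edgeR adjusted p = 0.0455), with libraries that overlapped and an adjusted p of 0.188, 0.168, 0.108 and 0.0764 without day 30 replicate 2, day 30 replicate 3, day 14 replicate 2 and day 14 replicate 3. Its call was also lost on total counts (log2 fold change -0.17, edgeR adjusted p = 0.165), in a fit of the 2 groups alone (-0.24, edgeR adjusted p = 0.0803) and with a replicate block (-0.25, edgeR adjusted p = 0.0626). Il10, Nfkb1 and Relb were not called, with log2 fold changes of 0.59, -0.20 and 0.22; Nfkb1 was called lower without day 14 replicate 1 (-0.28, edgeR adjusted p = 0.00323) and by DESeq2 (-0.20, adjusted p = 0.049).

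Of the 42 other pathway genes, 7 were higher and 13 lower at day 30 than at day 14; without day 30 replicate 2 the first count was 4, and on total counts 9 were higher and 9 lower. Of all genes, 2887 were higher and 2753 lower, against 3409 and 2052 on total counts. Il6ra averaged 80.6 ± 4.89 CPM at day 30 against 133 ± 13.6 CPM at day 14 (edgeR adjusted p = 1.19e-06). Zfp36, which encodes tristetraprolin, a protein that speeds the decay of cytokine mRNAs, averaged 455 ± 46.6 CPM at day 30 against 689.9 ± 28.6 CPM at day 14, and Nfkbie, IkB epsilon, 43.6 ± 1.82 CPM at day 30 against 80.98 ± 16.7 CPM at day 14, both lower at day 30. Traf1 averaged 23.1 ± 2.93 CPM at day 30 against 8.72 ± 1.49 CPM at day 14 and was higher. The summed neutrophil markers were 135 to 207 CPM after PBS, 93.5 to 116 CPM on day 14 and 564 to 649 CPM at day 30, and of the 9 that could be tested, 6 were lower and 1 higher at day 14 than after PBS, 8 were higher at day 30 than after PBS, and 8 were higher and 1 lower at day 30 than at day 14. The quotient of Acod1 over that sum was 0.0999 to 0.135 after PBS, 0.0268 to 0.0366 at day 14 and 0.0806 to 0.149 at day 30. Markers of 4 other cell types, B cells, dendritic cells, fibroblasts with endothelium, and T and NK cells, were higher at day 30 than at day 14 in 6 of 6, 3 of 6, 4 of 6 and 4 of 5 cases, and of 6 epithelial markers 4 were higher and 2 lower. Against PBS, B cell markers were lower in 6 of 6 cases at day 14 and 4 of 6 at day 30. Epithelial markers were lower in 5 of 6 at each day, and 1 was higher at day 30. Dendritic cell markers were lower in 4 of 6 cases at day 14, fibroblast and endothelial markers in 2 of 6 and T and NK cell markers in 1 of 5 tested. At day 30, T and NK cell markers were higher in 4 of 5 tested cases, and fibroblast and endothelial markers in 3 of 6. Of the dendritic cell markers 2 were then higher and 1 lower. The stress genes summed to 5953 to 6217 CPM after PBS, 4618 to 5946 CPM on day 14 and 8413 to 8505 CPM at day 30. Taken singly, the 13 stress genes were divided. At day 30 against day 14, 5 were higher and 6 lower. Against PBS, 3 were higher and 6 lower at day 14, and 4 were higher and 5 lower at day 30. The part of these transcripts in the changes of the 10 genes was not tested.

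EGFP+ IMs and EGFP+ AMs of day 14, both sorted from reporter mice after bleomycin and counted in one table, were compared to set the gates side by side. Of the 10 genes, 4 were higher in IMs (10.8% of 13460 genes) and 0 lower by edgeR (10.2% of genes), while DESeq2 and an unadjusted p under 0.05 each gave 1 lower, Il6. The 4 were Il10, Nfkbiz, Socs3 and Acod1. On total counts 3 of the 10 were higher and 1 lower, and of all genes 1110 were higher and 1785 lower, against 1454 and 1378 with the scaling used; the median of all genes was -0.109 on total counts and 0.005 with the scaling used. Il10 held 17.9, 14.2 and 14.1 CPM in IMs and 3.57, 3.72 and 4.01 CPM in AMs (log2 fold change 2.13 ± 0.18 SE, edgeR adjusted p = 2.18e-05). Socs3 held 358, 288 and 307 CPM in IMs and 136, 148 and 160.2 CPM in AMs (log2 fold change 1.21 ± 0.13 SE, edgeR adjusted p = 0.000138). Acod1, at 11.01, 14.9 and 28.8 CPM in IMs and 3.1, 3.42 and 2.78 CPM in AMs, was low in both gates and 6.503-fold higher in IMs (log2 fold change 2.70 ± 0.40 SE, edgeR adjusted p = 0.00184). For these 3 genes no IM library overlapped an AM library.

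Il6 held 18.5, 51.3 and 44.2 CPM in IMs and 76.4, 87.2 and 84.5 CPM in AMs, every IM library below every AM library. It was not called (log2 fold change -0.98 ± 0.38 SE, edgeR adjusted p = 0.121), but it was called lower in IMs without IM replicate 1 (log2 fold change -0.62, edgeR adjusted p = 0.00295), by DESeq2 (adjusted p = 0.00899), with all libraries in one fit (edgeR adjusted p = 0.00217) and on total counts (log2 fold change -1.12, edgeR adjusted p = 0.0447). Without IM replicate 1 Tnf (log2 fold change 0.47, edgeR adjusted p = 0.0119) and Relb (0.64, edgeR adjusted p = 0.00739) were called higher in IMs. Same-numbered libraries of these gates deviated together, and with the number as a block Relb was called as well (log2 fold change 0.41, edgeR adjusted p = 0.0342), as it was with all libraries in one fit (edgeR adjusted p = 0.0297) and with no filter on low counts (edgeR adjusted p = 0.0491). Nfkbiz, at 248, 266 and 254 CPM in IMs and 188, 229.5 and 202 CPM in AMs (log2 fold change 0.43 ± 0.13 SE, edgeR adjusted p = 0.0444), lost its call on total counts (log2 fold change 0.31, edgeR adjusted p = 0.128), with no filter on low counts (0.42, edgeR adjusted p = 0.0529) and without IM replicate 2 (0.39, edgeR adjusted p = 0.164), IM replicate 3 (0.40, edgeR adjusted p = 0.0856) or any 1 of the AM libraries. Nfkb1, Nfkbia and Tnfaip3 had log2 fold changes of -0.04, 0.17 and -0.08, with SE 0.19, 0.14 and 0.16, and were not called.

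Of the 42 other pathway genes, 9 were higher and 2 lower in IMs; of 11 inhibitors 4 were higher and 1 lower. Traf1 averaged 35.3 ± 4.07 CPM in IMs against 8.72 ± 1.49 CPM in AMs (edgeR adjusted p = 2.71e-05), and Il10rb, a chain of the interleukin-10 receptor, 105 ± 7.92 CPM in IMs against 52.4 ± 8.801 CPM in AMs. Bcl3 and Nfkbie were 1.66-fold and 1.904-fold higher in IMs. The count of higher pathway genes was 5 without IM replicate 2, AM replicate 1 or AM replicate 2. The count of lower ones ran from 0 without IM replicate 2 or without AM replicate 2 to 4 without IM replicate 1. The summed neutrophil markers were 141 to 211 CPM in the IM libraries and 93.5 to 116 CPM in the AM libraries, and 4 of the 8 that could be tested were higher in IMs. Of the stress genes 5 of 13 were higher, of the B cell markers 2 of 5 tested and of the dendritic cell markers 1 of 6, and 1 of 4 epithelial markers tested was lower. The part of these transcripts in the higher Acod1 of IMs was not tested.

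After PBS at day 7, WT IMs and EGFP+ AMs of reporter mice were compared. Genotype and EGFP sort differ along with the gate and cannot be told apart from it. In IMs 9 of the 10 genes were higher (39.2% of 15828 genes) and 0 lower by edgeR (39.7% of genes), by DESeq2 or at an unadjusted p under 0.05, with a median log2 change of 1.29. Acod1 was 55.3-fold higher in IMs, with 1102, 1214 and 1179.5 CPM in IMs and 25.4, 13.5 and 24.6 CPM in AMs (log2 fold change 5.79 ± 0.28 SE, edgeR adjusted p = 3.03e-05). Il10 was 16.1-fold higher, at 43.8, 29.2 and 33.1 CPM in IMs and 2.56, 1.14 and 3.02 CPM in AMs (log2 fold change 4.01 ± 0.30 SE, edgeR adjusted p = 9.41e-06). Socs3 was 8.36-fold and Nfkbiz 5.89-fold higher. Tnf differed least of the 9, with 221, 182 and 179 CPM in IMs and 154, 158 and 163 CPM in AMs (log2 fold change 0.29 ± 0.07 SE, edgeR adjusted p = 0.00104). Il6 was not called, at 43.5, 36.4 and 43.6 CPM in IMs and 40.7, 34.2 and 43.1 CPM in AMs, which overlap (log2 fold change 0.06 ± 0.09 SE, edgeR adjusted p = 0.531).

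Of the 42 other pathway genes, 32 were higher and 8 lower in IMs after PBS. Map3k14 averaged 308 ± 13.2 CPM in IMs against 38.8 ± 0.612 CPM in AMs, Traf1 191 ± 7.83 CPM in IMs against 17.2 ± 2.01 CPM in AMs, Birc3 448 ± 12.05 CPM in IMs against 70.9 ± 6.13 CPM in AMs and Bcl3 154 ± 4.84 CPM in IMs against 23.2 ± 1.73 CPM in AMs, all higher (edgeR adjusted p = 3.00e-17 for Bcl3, the least extreme of the 4). All 10 neutrophil markers were higher in IMs, with a sum of 7360.0 to 8734 CPM in the IM libraries and 135 to 207 CPM in the AM libraries. Markers of other cells were higher in IMs too, in 6 of 6 cases for B cells, 5 of 5 tested for T and NK cells, 5 of 6 for dendritic cells, with 1 lower, and 6 of 6 for fibroblasts with endothelium. The epithelial markers summed to 4308 to 6396 CPM in the IM libraries and 386 to 389.8 CPM in the AM libraries; 4 of the 6 were higher in IMs, while Epcam, with 6.82 ± 1.81 CPM in IMs against 182 ± 4.36 CPM in AMs, and Cdh1, with 29.9 ± 5.88 CPM in IMs against 70.9 ± 4.43 CPM in AMs, were lower. Mertk and Cd68 were lower in IMs as well. The stress genes summed to 8617 to 9059 CPM in the IM libraries and 5953 to 6217 CPM in the AM libraries. The part of all these transcripts in the difference between the gates was not tested.

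Across the 24 libraries, the levels of 9 of the 10 genes were positively correlated with each other, and those of Il6 were close to uncorrelated with them. Of 45 pairs of genes, 42 had a Pearson's r above 0 on log2(CPM + 1), with a median of 0.843. The highest was 0.968 for Nfkb1 with Relb, and the lowest was -0.261 for Il6 with Acod1. The 24 libraries are 3 from each of 8 groups and so are not independent points; the values are a description, with no p.

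**Figure D4:**
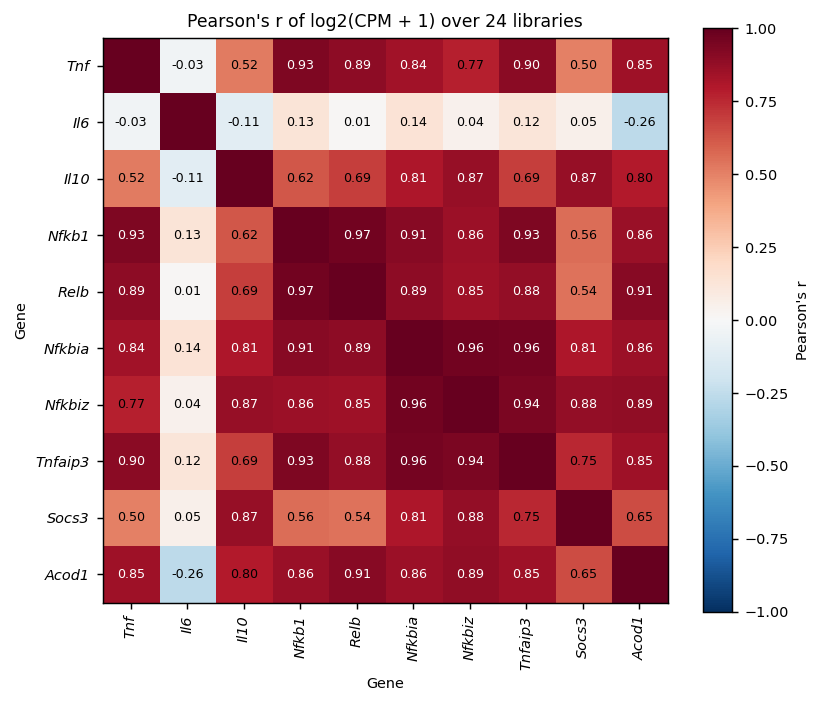
Pearson's r of log2(CPM + 1) between each pair of the 10 genes over 24 libraries; red is positive and blue negative. The row of Il6 is pale, with values from -0.26 to 0.14, while the pairs among the other 9 genes run from 0.50 to 0.97.

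The genes most like each of the 10 over the 24 libraries were sought among 9535 genes with a mean of at least 10 CPM in a group, by Pearson's r of log2(CPM + 1). For Relb and Nfkb1 the nearest was Nfkb2, at r = 0.981 and 0.975. For Tnfaip3 it was Bcl2l11 at 0.990, which encodes the cell death protein BIM, and for Nfkbiz it was Btg1 at 0.991, with Slc20a1 at 0.986 and Bcl3 at 0.984 after it. For Socs3 the nearest were Pvr at 0.990, a receptor of the nectin family, and Ptgs2 at 0.987, which encodes the prostaglandin-making enzyme COX-2. Acod1 was nearest to Csf3r at 0.989, the receptor of the neutrophil growth factor G-CSF, then to Ifitm1 at 0.988 and the chemokine gene Ccl3 at 0.986. For Tnf the nearest was Amer2 at 0.954, for Il10 Fyb at 0.976, which encodes an adaptor of leukocyte adhesion, and for Nfkbia Spata13 at 0.985. Il6 had no gene as near: the highest was Gtf2b, a general transcription factor, at 0.819.

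Csf3r is one of the 10 neutrophil markers, and the sum of these markers had an r of 0.978 with Acod1, 0.907 with Nfkbiz, 0.893 with Relb, 0.775 with Tnf and -0.214 with Il6 over the 24 libraries. With the sum of the dendritic cell markers the r values were close to these, at 0.92 for Acod1, 0.863 for Nfkbiz, 0.89 for Relb, 0.754 for Tnf and -0.185 for Il6. For Acod1 the sums of the T and NK cell, fibroblast and endothelial, B cell and epithelial markers had an r of 0.765, 0.738, 0.66 and 0.433. With the sum of the stress genes the r values were 0.748 for Acod1, 0.706 for Nfkbiz, 0.498 for Tnf and -0.397 for Il6. The quotient of Acod1 over the neutrophil sum was not constant: its group medians were 0.104 in day 14 EGFP+ IMs, 0.281 in day 7 EGFP+ IMs, 0.267 in EGFP- IMs, 0.0936 in bleomycin WT IMs and 0.15 in PBS WT IMs, and in AMs 0.119 after PBS, 0.0283 at day 14 and 0.106 at day 30.

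**Figure D5:**
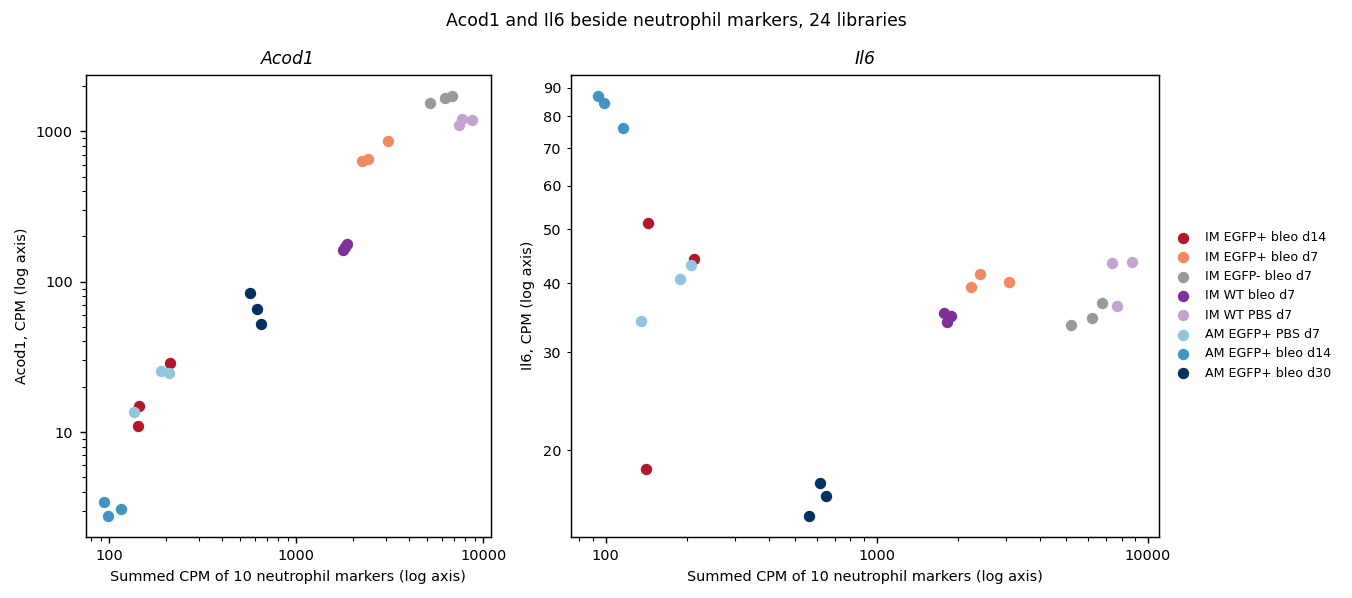
Acod1 (left) and Il6 (right) in CPM against the summed CPM of 10 neutrophil markers, on log axes; each point is a library, coloured by group. Acod1 rises along the axis (r = 0.978 on log2 values), with bleomycin WT IMs at 161 to 177 CPM, and Il6 does not (r = -0.214).

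The deposited tables place the genes on GRCm38. Tnf (ENSMUSG00000024401) lies at chr17:35199381-35202007 on the minus strand, Il6 (ENSMUSG00000025746) at chr5:30013114-30019981 on the plus strand and Il10 (ENSMUSG00000016529) at chr1:131019845-131024974 on the plus strand. Nfkb1 (ENSMUSG00000028163) lies at chr3:135584655-135691547 and Relb (ENSMUSG00000002983) at chr7:19606217-19629438, both on the minus strand. Nfkbia (ENSMUSG00000021025) lies at chr12:55489411-55492647, Nfkbiz (ENSMUSG00000035356) at chr16:55811375-55838899, Tnfaip3 (ENSMUSG00000019850) at chr10:19000910-19015657 and Socs3 (ENSMUSG00000053113) at chr11:117966079-117970047, all on the minus strand, and Acod1 (ENSMUSG00000022126) at chr14:103046977-103056573 on the plus strand. The second table starts Nfkbia 1 base earlier and gives the other 9 the same span. Nfkb1 is the one gene of the 10 whose span overlaps that of another gene in the tables, the predicted gene Gm43430 on the same strand, which had at most 124 counts in a library.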

How the data were processed

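What the authors deposited are counts of reads per gene, not normalised, in 2 tables: 49585 genes for 15 of the libraries used here and 55487 genes for the other 9. Per the submitters' processing notes, the tools named were FastQC 0.11.5, Trimmomatic 0.38, HISAT2 2.1.0, SAMtools and featureCounts 1.6.3 with GRCm38; the annotation release and the strand setting are not given in the sources used here. The tables were joined by Ensembl ID, which kept 49022 genes and at least 99.486% of each library's counts; 90.8% of them have the same gene model in both tables. A further 3 count columns match no sample and were not used. Groups and replicate numbers come from the sample titles. The labels do not say that replicates are separate animals, so p-values measure the spread between libraries, which may be technical.

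Genes were filtered with filterByExpr, scaled by TMM and tested with edgeR 4.0.16 (glmQLFit, robust; glmQLFTest) in R 4.3.3, two-sided, with Benjamini-Hochberg adjustment over all genes tested in a fit and a threshold of 0.05. The SE of a log2 fold change is its size divided by the square root of F. The fits held the 2 WT IM groups; the 3 reporter IM groups; the 3 AM groups; the 2 day 14 groups; and the 2 PBS groups. After the main fits, each was also run on counts simulated from its own means and dispersions, with results not given here. Alternatives were RLE factors, total-count scaling, no filter, DESeq2 1.42.0, all libraries in one fit, 2 groups alone, genes of identical model, a replicate block and leaving out each library.

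The 10 genes, the list of 42 other pathway genes and the marker lists were chosen with earlier results of these data known. All 10 genes were named in each comparison, together with the 4 pathway genes of smallest p among those called and, over the 24 libraries, up to 3 genes of most like pattern for each. Exon lengths came from GENCODE M21 and promoter windows from RefSeq GRCm38.p6. Counts resolve the 10 genes to at least 28 per library. At day 14, same-numbered IM and AM libraries deviated from their group means together, with correlations of 0.295, 0.235 and 0.275 and every library nearest to its own number, so the replicate block is given beside that comparison where it changes a call.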

Additional observations from a re-analysis of the deposited data

Results flagged for a closer look

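In AMs of reporter mice, edgeR's test of day 30 against day 14 called 7 of the 10 genes. In that test 19.6% of 14706 genes were called higher and 18.7% lower. For these 7 genes the change from PBS therefore differed between the 2 days. The PBS libraries, all of day 7, are common to both changes and cancel. Each difference below is thus the day 30 against day 14 test itself and adds no further evidence. The changes from PBS cross the 2 count tables, so treatment cannot be told apart from table or from day. Il6, the interleukin-6 gene, had a log2 change from PBS of -1.15 at day 30 and 1.26 at day 14, a difference of -2.41 (edgeR adjusted p = 4.65e-11). Acod1, the itaconate-making enzyme, had 1.79 at day 30 and -2.58 at day 14, a difference of 4.37 (edgeR adjusted p = 2.59e-06). Socs3, an inhibitor of interleukin-6 signalling, had 1.39 at day 30 and 2.06 at day 14, a difference of -0.68 (edgeR adjusted p = 4.87e-05). Nfkbia, which encodes IkB alpha, had -0.22 at day 30 and 0.27 at day 14, a difference of -0.48 (edgeR adjusted p = 8.03e-05). Tnf had -0.68 at day 30 and -1.02 at day 14, a difference of 0.34 (edgeR adjusted p = 0.00366), a call lost with all libraries in one fit (edgeR adjusted p = 0.0589). Tnfaip3, which encodes A20, had -0.22 at day 30 and 0.15 at day 14, neither called, and a difference of -0.37 (edgeR adjusted p = 0.006). Nfkbiz, which encodes IkB zeta, had 0.35 at day 30 and 0.60 at day 14, a difference of -0.24 (edgeR adjusted p = 0.0455); that call was lost on total counts (edgeR adjusted p = 0.165), in a fit of the 2 groups alone (0.0803), with a replicate block (0.0626) and without any 1 of 4 libraries (0.0764 to 0.188). Every library of day 30 lay outside the range of day 14 for Il6, Acod1, Socs3, Nfkbia and Tnf. The same held for Il10, which was not called, and how many of all genes were so separated was not counted.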

How the results depend on the processing

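Over 80 fold changes of the 10 genes and 1082 alternative values, 1018 kept direction and call, 30 lost the call, 18 gained it and 16 changed sign, the last all from changes that were not called. With total-count scaling the values that changed sign were 0.0023 for Tnfaip3 in WT IMs, -0.083 for Il6 and -0.20 for Il10 in EGFP+ IMs at day 14 against day 7, and -0.031 for Tnfaip3 in AMs at day 14 against PBS. With no filter they were 0.014 for Tnfaip3 in WT IMs, -0.020 for Il10 in EGFP+ IMs over time and -0.015 for Il6 in IMs against AMs after PBS. Leaving out each library gave -0.12 to 0.50 for Il6 and -0.076 to 0.12 for Il10 in EGFP+ IMs over time, -0.19 to 0.16 for Nfkb1 and -0.19 to 0.0081 for Tnfaip3 in IMs against AMs of day 14, and -0.053 to 0.13 for Il6 in IMs against AMs after PBS. The cause of these changes was not tested.

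Between EGFP+ and EGFP- IMs, 1 pathway gene was called higher with all libraries in one fit, and a fit of the 2 groups alone called 1 of the 10 genes, 2 pathway genes and 4064 of all genes higher; leaving out each library gave 1670 to 2107 genes higher and 1610 to 2114 lower, the lowest without EGFP+ replicate 2. In EGFP+ IMs over time total-count scaling called 1 pathway gene and 2063 genes higher, and leaving out each library 0 to 1 of the 10 genes higher. In AMs at day 14 against PBS it called 7 pathway genes higher, 20 lower and 2641 genes higher. In AMs at day 30 against day 14 all libraries in one fit called 1 of the 10 genes higher, and leaving out each library 4 to 8 pathway genes higher. In IMs against AMs of day 14, total-count scaling, DESeq2 and all libraries in one fit each called 1 of the 10 genes lower, Il6, and that single fit called 8 pathway genes lower, 2937 genes higher and 2969 lower. Leaving out each library there gave 0 to 1 of the 10 genes lower, 5 to 12 pathway genes higher and 0 to 4 lower, and 868 to 1529 genes lower. Span ratios of the levels with TMM scaling moved less than the spread between replicates (480.8 for Acod1).

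Outside the day 14 gates, same-numbered libraries did not deviate together (correlations from -0.091 to 0.164), although every library of WT IMs and AMs after PBS lay nearest to its own number. With a replicate block, the one further call of the 10 genes that changed was that of Nfkbiz in AMs at day 30 against day 14 (log2 fold change -0.25, edgeR adjusted p = 0.0626). Nfkbia has no value in the alternative on genes of identical model, since its model differs between the tables. With no filter the median of all genes shifted by up to -0.227 in AMs at day 14 against PBS. The low counts of Il10 and Acod1 in AMs limit the precision of their folds.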
